A study of Homo sapiens with 5 samples.

Results

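Iron storage and iron handling were followed through 9 genes, FTH1, FTL, CP, TFRC, HMOX1, SLC11A2, IREB2, ACO1 and NCOA4, out of 15187 genes listed for every library. The 9 were picked because FTH1 and CP were low after knockdown of CCT2, so their knockdown changes are a description and were not tested. RNA-seq was done on SAS, an established human tongue line of head and neck squamous cell carcinoma. The control libraries, shCtrl 1 and shCtrl 2, came from cells with a control hairpin RNA, and the knockdown libraries, shCCT2 1, 2 and 3, from cells with a hairpin RNA against CCT2, a subunit of the chaperonin that folds actin and tubulin. The counts came in 2 deposited tables, set A (shCtrl 1, shCCT2 1 and shCCT2 2) and set B (shCtrl 2 and shCCT2 3), and a knockdown library was compared with the control deposited beside it. How many hairpin sequences, clones or cultures lie behind the libraries is not in the labels, so the spread between them may be technical.

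Cells take up iron bound to transferrin through the transferrin receptor (TFRC), carry it out of the endosome through the transporter DMT1 (SLC11A2), and store it inside ferritin shells built from heavy (FTH1) and light (FTL) chains. Haem oxygenase (HMOX1) frees iron from haem, NCOA4 delivers ferritin to lysosomes for breakdown, and ceruloplasmin (CP) is a copper ferroxidase that helps iron leave cells. When iron is short, the iron regulatory proteins IRP1 (ACO1) and IRP2 (IREB2) bind hairpins called iron responsive elements. Binding near the start of ferritin mRNA blocks its translation, and binding after the coding region of TFRC mRNA protects it from decay. RNA-seq reads mRNA level and not translation, so the ferritin branch of this switch was not measured here.

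These elements are shown because ferritin and TFRC carry the same element in opposite positions. A search for C, 5 bases, the loop CAGTGN and 5 bases pairing with the first 5 (G-T pairs allowed; the transcript strand alone was searched) found 1 site in FTL and 4 in TFRC. Each of the 5 sites below is 27 bases long and is written 5′ to 3′, with the loop in capitals.
FTL: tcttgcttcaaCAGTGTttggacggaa
TFRC site 1: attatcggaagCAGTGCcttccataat
TFRC site 2: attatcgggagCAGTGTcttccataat
TFRC site 3: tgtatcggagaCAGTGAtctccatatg
TFRC site 4: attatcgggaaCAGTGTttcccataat
The FTL site lies in the 5′ UTR at chr19:48965336-48965362 on the plus strand (GRCh38, GENCODE 29). The TFRC sites lie in the 3′ UTR on the minus strand, at chr3:196050980-196051006, chr3:196050576-196050602, chr3:196050511-196050537 and chr3:196050464-196050490. Of 19643 principal coding transcripts, one per gene, 1.22% held such a site, and the same search gave no match in SLC11A2, IREB2, ACO1 or NCOA4. The search misses elements with a bulge among the 5 pairs, with another loop, or in other transcripts of a gene. A lack of match is therefore not a lack of an element, and the counts of sites may be too low. Sites in FTH1, CP and HMOX1 were not analysed here.

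The library totals ran from 16913585 to 18156592 counts. CCT2 stood at 630 and 642 normalised CPM (counts per 1000000 counts, after scaling between libraries) in the controls and at 260 to 296 in the knockdown libraries, the direction the labels give. The last 20% of the 201 windows along transcripts held 17.3% and 15.8% of read signal in shCtrl 1 and 2 and 14.3% to 15.8% in the knockdown libraries. All 10 squamous epithelial markers had counts, but their summed level differed between the sets. It was 5220 CPM in shCtrl 1 and 3335 to 4388 in the set A knockdown libraries, against 1418 CPM in shCtrl 2 and 2161 in shCCT2 3. CDH1, which encodes E-cadherin, stood at 251 CPM in shCtrl 1 and 10.6 in shCtrl 2. KRT6A was the only one of the 10 that was higher in shCtrl 2 than in shCtrl 1, at 64.8 against 40.3 CPM. Within set B the markers moved in opposite directions, with KRT6A at 630 CPM in shCCT2 3, and KRT17 at 404 in shCtrl 2 and 111 in shCCT2 3. Markers of other cell types were also read. Hepatocytes are the main source of CP in the body. Of 8 hepatocyte markers 5 had counts, TTR, APOB and CYP3A4 were at 0 in every library and ALB did not pass 0.106 CPM. The list summed to 115, 135 and 159 CPM in shCtrl 1, shCCT2 1 and shCCT2 2 and to 3.76 and 11.5 CPM in shCtrl 2 and shCCT2 3, nearly all of it SERPINA1. Leukocyte markers (7 of 8 with counts, CD163 at 0) summed to 44.8 to 122 CPM. The defining leukocyte gene PTPRC reached 6.51 CPM in shCCT2 2 and at most 0.648 in the other libraries. Fibroblast markers summed to 3.06 to 12.4 CPM with DCN, LUM and THY1 at 0, and erythroid and endothelial markers to at most 17.3 and 9.70 CPM. The part of these marker levels in the results was not tested.

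FTH1, the heavy chain that oxidises iron for storage, was lower in all 3 knockdown libraries. It stood at 3663 CPM in shCtrl 1 and at 2388 and 2304 CPM in shCCT2 1 and shCCT2 2. In set B it stood at 6434 CPM in shCtrl 2 and 2963 in shCCT2 3. Every knockdown library lay below both controls. Against the control of its own set, shCCT2 1 differed by -34.8%, shCCT2 2 by -37.1% and shCCT2 3 by -53.9%. The log2 changes were -0.62, -0.67 and -1.12, and the fit over 3 knockdown and 2 control libraries gave -0.85 ± 0.21 (SE). In bulk RNA, fewer cells with a transcript and less of it in each cell cannot be told apart. The 2 knockdown libraries of set A differed from each other by only -3.55% (shCCT2 2 against shCCT2 1), while the controls of the 2 sets differed 1.76-fold. FTH1 took 0.353% and 0.718% of all counts in the controls and 0.220% to 0.306% in the knockdown libraries. By symbol alone (starting with FTH1P, FTLP or FTHL), RefSeq lists 49 ferritin pseudogenes or ferritin-like genes. Of these, 1 appears in the tables, with at most 1 count. How reads from FTH1-like copies were assigned is therefore not known, and the level of FTH1 is uncertain to that extent.

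FTL, the light chain that supports the mineral core, did not follow FTH1 in every library. It stood at 1455 CPM in shCtrl 1, 1524 in shCCT2 1 and 868 in shCCT2 2. In set B it stood at 1533 CPM in shCtrl 2 and 1002 in shCCT2 3. The controls and shCCT2 1 were thus alike, and shCCT2 2 and shCCT2 3 lay below them, with log2 changes of 0.07, -0.74 and -0.61 (fitted -0.43 ± 0.29, SE). The gap between the knockdown libraries of set A, -0.81 on the log2 scale (shCCT2 2 minus shCCT2 1), was larger than the fitted change, which was -0.68 without shCCT2 1 and -0.26 without shCCT2 2. FTH1 and FTL together stood at 5118 and 7967 CPM in the controls and at 3913, 3171 and 3965 CPM in shCCT2 1, 2 and 3, so the summed ferritin mRNA was lower in every knockdown library than in either control.

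**Figure D1:**
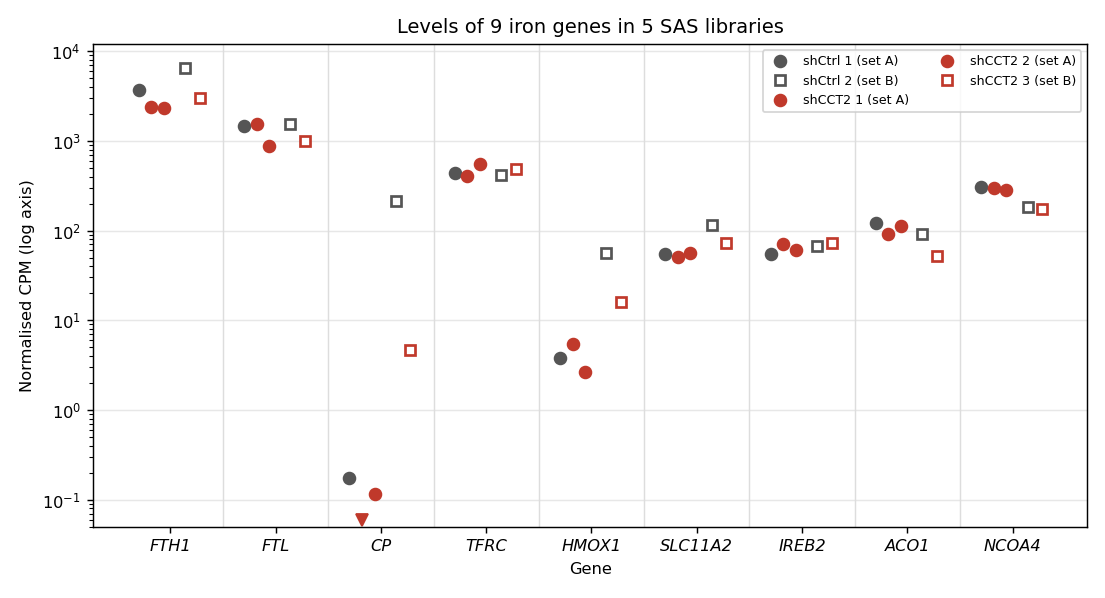
Normalised CPM (log axis) of the 9 iron genes, with filled circles for set A, open squares for set B, grey for control and red for knockdown libraries, and a triangle at the lower edge for a count of 0. FTH1 is highest in shCtrl 2 at 6434 CPM and lies between 2304 and 2963 CPM in the knockdown libraries, and CP and HMOX1 are highest in shCtrl 2.

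CP had a sizeable level in shCtrl 2 alone. In set A, shCtrl 1 held 3 counts of it, shCCT2 1 held 0 and shCCT2 2 held 1.93, all at or under the floor of 3 counts, so no fold is given for set A. In set B it stood at 214 CPM in shCtrl 2 (4032 counts) and at 4.67 CPM in shCCT2 3 (85.5 counts; exact Poisson 95% interval 3.73 to 5.77 CPM, which covers counting error only, since reads without molecular identifiers are not independent molecules). That is 45.8-fold lower in shCCT2 3 than in shCtrl 2, from 1 library each. CP passed the filter on low counts through the set B libraries alone, and its fitted change of -5.24 ± 0.68 (SE) rests on that pair. It became -1.44 without shCtrl 2, and without shCCT2 3 CP was not tested.

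HMOX1 followed a like order between the sets. It stood at 3.81 CPM in shCtrl 1 (exact Poisson 95% interval 2.94 to 4.84), 5.48 in shCCT2 1 (4.42 to 6.71) and 2.69 in shCCT2 2 (1.96 to 3.59). Each set A knockdown interval overlaps that of shCtrl 1, and the 2 libraries lie on opposite sides of it. In set B it stood at 56.2 CPM in shCtrl 2 and 15.9 in shCCT2 3, a log2 change of -1.79. The fitted change was -0.83 ± 0.55 (SE), and it turned to 0.10 without shCtrl 2 or without shCCT2 3, and was -1.79 without shCtrl 1.

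On the uptake side, TFRC stood at 439 CPM in shCtrl 1, 402 in shCCT2 1 and 559 in shCCT2 2, and at 416 in shCtrl 2 and 483 in shCCT2 3. One knockdown library lay below its control and the other two above theirs (fitted log2 change 0.17 ± 0.22, SE), and the controls of the sets were alike. The fitted value was 0.29 without shCCT2 1 and 0.05 without shCCT2 2. SLC11A2 stood at 55.4 CPM in shCtrl 1, 50.2 in shCCT2 1 and 56.4 in shCCT2 2. Set B gave 115 CPM in shCtrl 2 and 72.3 in shCCT2 3. Its set A libraries lay together and shCtrl 2 stood apart from all others, with log2 changes of -0.14, 0.03 and -0.66 (fitted -0.32 ± 0.21, SE). Without shCtrl 2 or shCCT2 3 the fitted value was -0.06, and without shCtrl 1 it was -0.64.

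The genes of the iron regulatory proteins lay on opposite sides of their controls. IREB2, which encodes IRP2, was the 1 gene of the 9 with a higher value in all 3 knockdown libraries. It stood at 55.2 CPM in shCtrl 1, 70.8 in shCCT2 1 and 59.99 in shCCT2 2, and at 66.8 in shCtrl 2 and 73.4 in shCCT2 3. The groups overlap, since shCCT2 2 lies between the 2 controls, and the fitted log2 change was 0.20 ± 0.18 (SE). ACO1, which encodes IRP1, a protein that doubles as cytosolic aconitase, stood at 121 CPM in shCtrl 1, 92.7 in shCCT2 1 and 112 in shCCT2 2. In set B it stood at 92.1 CPM in shCtrl 2 and 52.2 in shCCT2 3. The log2 changes were -0.38, -0.11 and -0.81 (fitted -0.49 ± 0.22, SE), and the fitted value was -0.24 without shCtrl 2 or shCCT2 3 and -0.79 without shCtrl 1. NCOA4, the ferritin receptor of autophagy, was nearly level within each set. It stood at 304, 294 and 282 CPM in shCtrl 1, shCCT2 1 and shCCT2 2, and at 182 and 172 CPM in shCtrl 2 and shCCT2 3. Its log2 changes of -0.04, -0.10 and -0.08 (fitted -0.08 ± 0.17, SE) were small beside the control difference between the sets, -0.74 (set B minus set A).

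**Figure D2:**
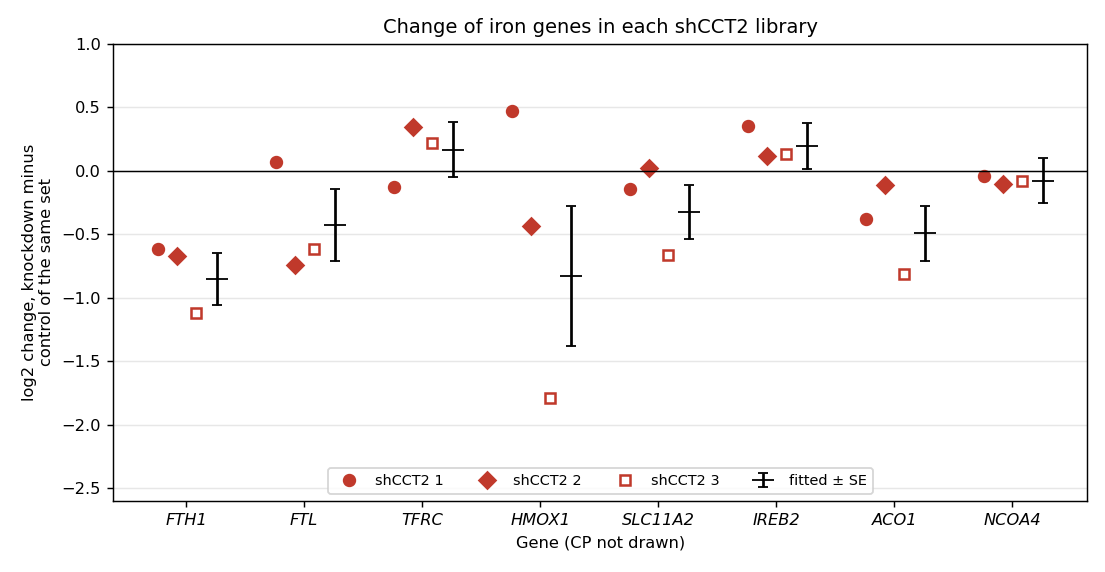
Log2 change of each knockdown library against the control of its own set (red symbols) and fitted change with its SE (black) for 8 of the 9 genes. CP is left out because its set A libraries had at most 3 counts, FTH1 is below 0 in all 3 libraries, and FTL, TFRC, HMOX1 and SLC11A2 have libraries on both sides of 0.

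Of the 9 genes, 4 were lower in all 3 knockdown libraries (FTH1, CP, ACO1 and NCOA4), and for CP the set A signs rest on at most 3 counts. Among the 13123 genes tested, 21.4% were lower in all 3 libraries and 20.2% were higher in all 3. A value lower by at least 0.5 log2 units in all 3 was seen for 1 of the 9, FTH1, and for 1.67% of genes tested. None of the 9 was higher in both set A knockdown libraries and lower in that of set B, a pattern of 11.6% of genes tested. In the set B pair, 3 of the 9 (FTH1, CP and HMOX1) were lower by at least 1 log2 unit and 0 were higher by as much, against 13.8% and 8.37% of genes tested. The 9 were chosen on this contrast, so nothing is read from these counts. Over the whole table, edgeR's quasi-likelihood test called 0 of 13123 genes at a Benjamini-Hochberg adjusted p under 0.05, that is 0% higher and 0% lower. The target CCT2 was itself not called by this test (adjusted p = 0.542), though its fitted log2 change was -1.22 ± 0.18 (SE). A gene not called is therefore not shown to be unchanged. At an unadjusted p under 0.05 there were 972 genes (7.41%), and DESeq2's Wald test called 13 after adjustment.

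Ratios of counts within a library do not depend on scaling between libraries. Transcript length enters them, so only their difference between libraries is read. FTH1 over TFRC was 8.35 in shCtrl 1, 5.95 in shCCT2 1 and 4.12 in shCCT2 2. In set B it was 15.5 in shCtrl 2 and 6.13 in shCCT2 3. Every knockdown library had a lower FTH1 to TFRC ratio than either control, with log2 changes of -0.49, -1.02 and -1.34. FTH1 was picked for its low level after knockdown, so this fall is a description. The other storage chain did not follow in every library. FTL over TFRC was higher in shCCT2 1 than in either control and lower in shCCT2 2 and 3. Its log2 changes were 0.19, -1.09 and -0.83 in shCCT2 1, 2 and 3. FTH1 over FTL was 2.52, 1.57 and 2.65 in shCtrl 1, shCCT2 1 and shCCT2 2, and 4.20 and 2.96 in shCtrl 2 and shCCT2 3. This chain ratio was therefore lower in shCCT2 1 and 3 and close to its control in shCCT2 2 (log2 change 0.08). IREB2 over ACO1 was 0.457, 0.764 and 0.537 in set A and 0.724 and 1.41 in set B, higher than the control of the same set in each case (log2 changes 0.74, 0.23 and 0.96).

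**Figure D3:**
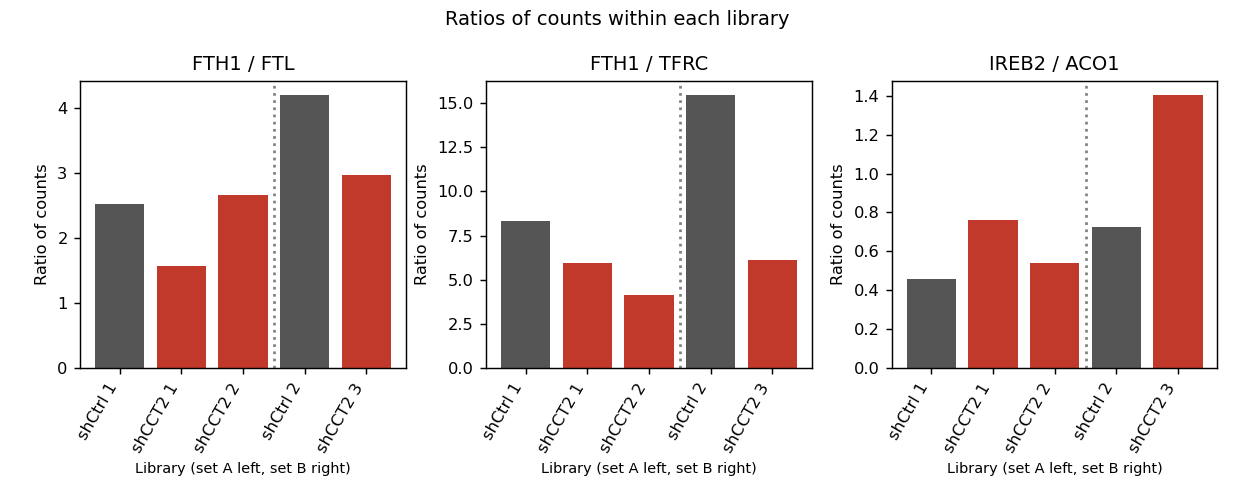
Ratio of counts of FTH1 to FTL, FTH1 to TFRC and IREB2 to ACO1 in each library, grey for controls and red for knockdown libraries, with set A left and set B right of the dotted line. FTH1 to TFRC is 4.12 to 6.13 in the knockdown libraries and 8.35 and 15.5 in the controls.

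Levels between genes were compared per length, as CPM per kilobase of the principal GENCODE 29 transcript. FTH1 came first and FTL next in all 5 libraries, with FTH1 at 2981 and 5235 CPM per kb in the controls and 1874 to 2411 in the knockdown libraries. FTL stood at 988 to 1746 CPM per kb. In shCCT2 1 the chains were closest, at 1943 for FTH1 and 1736 for FTL. NCOA4 (74.6 to 132 CPM per kb) and TFRC (78.6 to 109) followed in every library, in that order in set A and the reverse in set B, where shCtrl 2 had 78.9 and 81.3 CPM per kb. CP took the last place in set A and in shCCT2 3, with at most 0.998 CPM per kb, and rank 5 of the 9 in shCtrl 2, with 45.7.

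The control libraries of the 2 sets were compared because the set B changes start from different levels. shCtrl 2 lay at least 1 log2 unit above shCtrl 1 for 3 of the 9 genes, CP, HMOX1 and SLC11A2, as for 17.3% of genes tested, and above it by any amount for 6 of the 9, against 49.9%. HMOX1 was 14.8-fold and SLC11A2 2.08-fold higher in shCtrl 2 than in shCtrl 1. With 1 control library in each set there is no replicate check, and set and cell state cannot be told apart. For FTH1, shCCT2 3 lay 0.31 log2 units below shCtrl 1 (-0.31), so the set B knockdown library also lay below the set A control, as it did for FTL (-0.54), ACO1 (-1.20) and NCOA4 (-0.82). For HMOX1, SLC11A2, IREB2 and TFRC it lay above shCtrl 1, by 1.93, 0.38, 0.41 and 0.14, and CP had 85.5 counts there against 3 in shCtrl 1. The test of a different knockdown change in the 2 sets (edgeR quasi-likelihood, interaction of set and hairpin, Benjamini-Hochberg over all genes) called 0 of the genes tested (0%) on 1 residual degree of freedom. At an unadjusted p under 0.05 it had 2255 genes, and DESeq2 called 263 after adjustment. For the 9 genes, chosen on the knockdown contrast, no such test is given.

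The genes closest to 4 of the members over the 5 libraries were found by the root mean square difference of centred log2(CPM + 1) among the 9634 genes averaging 10 CPM or more. Since they were picked for likeness over these same libraries, their likeness to the member is a description and was not tested. Closest to FTH1 were WDR45 (0.08), ARG2 (0.13), GULP1 (0.13) and TMEM132A (0.13 log2 units). WDR45, the nearest, is a gene of autophagy whose loss causes brain iron accumulation in people, and a link to FTH1 was not tested. WDR45 stood at 36.0, 23.8 and 26.6 CPM in shCtrl 1, shCCT2 1 and shCCT2 2 and at 67.7 and 31.1 CPM in shCtrl 2 and shCCT2 3. Closest to FTL were PHACTR2 (0.11), NQO1 (0.12), ABCC4 (0.14) and SLC6A6 (0.18). NQO1, a quinone reductase, stood at 309, 390 and 216 CPM in shCtrl 1, shCCT2 1 and shCCT2 2 and at 326 and 245 CPM in shCtrl 2 and shCCT2 3. TFRC was closest to LEPROT (0.04), ZSWIM1 (0.05), CREB3L4 (0.05) and MUM1 (0.05). CP was closest to OSCAR (0.44), CX3CL1 (0.47), AKR1C1 (0.62) and AKR1C2 (0.73), all of which had under 1 CPM in each set A library and 106 to 783 CPM in shCtrl 2. They were picked for likeness to CP and reach a mean of 10 CPM through shCtrl 2, so this shared pattern follows from the choice. AKR1C1 and AKR1C2 are near-identical in sequence, so their split is uncertain.

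Other genes of iron and haem biology were taken from 9 lists of 110 genes, of which 99 were tested. None of the 99 passed edgeR's test over all genes (lowest adjusted p = 0.542) and DESeq2 called 0. In edgeR, 6 of the 99 had an unadjusted p under 0.05, against 7.41% of all genes tested. CCT2 itself did not pass edgeR's test either. The fitted value was higher for 46 and lower for 53, against 48.5% higher over all genes tested. The median log2 change was -0.02, as over all genes tested (-0.02). In 6 of the lists the median lay between -0.07 and 0.05, and with 1 library left out these medians ran from -0.17 to 0.27.

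Iron uptake and reduction held 4 higher and 6 lower of 10 tested genes, with a median of -0.27. Without shCtrl 2 or shCCT2 3 this median was -0.10 or -0.09, without shCCT2 2 it was -0.17, and without shCtrl 1 or shCCT2 1 it was -0.49 or -0.43. LRP1, an endocytic receptor that also takes up haem-haemopexin, stood at 25.8 CPM in shCtrl 1, 20.6 in shCCT2 1 and 24.7 in shCCT2 2, and at 94.3 and 30.4 CPM in shCtrl 2 and shCCT2 3 (fitted -0.84 ± 0.36, SE). CYBRD1, a ferric reductase, had a fitted value of -0.71 ± 0.39, with -0.45, 0.21 and -1.48 in shCCT2 1, 2 and 3. The metalloreductase genes STEAP2 and STEAP3 had -0.53 ± 0.33 and -0.29 ± 0.21. In shCCT2 1, 2 and 3, STEAP2 had -0.33, 0.14 and -1.09, and STEAP3 had -0.03, -0.38 and -0.41. In the list of iron export and hormonal control, all 6 tested genes had a lower fitted value, with a median of -0.83. Of the 6, 3 were lower in all 3 libraries (SLC40A1, BMP6 and NEO1). Over all genes tested, 48.5% had a higher fitted value and 21.4% were lower in all 3. The set A signs rest on few counts for SLC40A1 (19, 18 and 8 in shCtrl 1, shCCT2 1 and shCCT2 2) and for BMP6 (11, 6 and 8.01). The list median was -0.12 for shCCT2 1, -0.07 for shCCT2 2 and -1.34 for shCCT2 3, so the lowest of the 3 medians was that of set B. The list median was -0.22 without shCtrl 2 or shCCT2 3 and -1.47 without shCtrl 1. The iron exporter ferroportin, SLC40A1, was scarcely present, at 1.10 CPM in shCtrl 1, 1.06 in shCCT2 1 and 0.478 in shCCT2 2, and at 1.33 and 0.218 CPM in shCtrl 2 and shCCT2 3. BMP6, a growth factor that induces hepcidin, stood at 18.1 CPM in shCtrl 2 and 6.89 in shCCT2 3 and at most 0.634 CPM in set A. NEO1, a co-receptor in hepcidin control, had -0.58 ± 0.24, with -0.21, -0.21 and -1.03, and APP had -0.48 ± 0.34. The hepcidin gene HAMP and the ferroxidase gene HEPH were listed in neither set, so they could not be analysed here.

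The list of IRP control, iron chaperones and ferritin turnover had a median of -0.07, with 3 higher and 6 lower of 9 genes. FBXL5, the iron sensor that targets IRP2 for degradation, stood at 52.7, 55.6 and 58.1 CPM in shCtrl 1, shCCT2 1 and shCCT2 2, and at 58.4 and 38.1 CPM in shCtrl 2 and shCCT2 3 (fitted -0.21 ± 0.23, SE). HERC2, a ubiquitin ligase that acts on NCOA4, had 0.34 ± 0.22, and PROM2, linked to ferritin secretion, had -0.13 ± 0.22. Mitochondrial iron and Fe-S assembly held 11 higher and 9 lower of 20 genes (median 0.05). IBA57, a late-acting assembly factor, had 1.07 ± 0.42 (0.63, 0.26 and 1.79 in shCCT2 1, 2 and 3). ISCA1 had 0.46 ± 0.26, with 0.23, -0.06 and 0.95, and the ferredoxin reductase gene FDXR had -0.45 ± 0.26. Cytosolic Fe-S assembly held 8 higher and 3 lower of 11 genes (median 0.21), among them CIAPIN1 at 0.49 ± 0.27, NDOR1 at 0.44 ± 0.24, NUBP2 at 0.28 ± 0.20 and MMS19 at -0.28 ± 0.20. The list median was -0.0016 without shCtrl 2 and -0.0008 without shCCT2 3, so it rests on the set B pair.

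Haem synthesis held 4 higher and 4 lower of 8 genes (median -0.03). FECH, which puts iron into the haem ring, stood at 39.4, 41.0 and 32.2 CPM in set A and at 44.0 CPM in shCtrl 2 and 14.1 in shCCT2 3 (fitted -0.78 ± 0.39, SE). PPOX had -0.23 ± 0.39 and UROS 0.15 ± 0.21. Haem handling and breakdown held 6 higher and 5 lower of 11 genes (median 0.05). The biliverdin reductases act after haem oxygenase. BLVRB stood at 16.95 CPM in shCtrl 1, 9.07 in shCCT2 1 and 12.7 in shCCT2 2, and at 83.7 and 37.7 CPM in shCtrl 2 and shCCT2 3, lower than the control of its set each time (fitted -0.87 ± 0.25). BLVRA had -0.80 ± 0.34, with -0.43, -0.05 and -1.51. The haem transporter gene SLC48A1 had -0.62 ± 0.25, with -0.85, -0.34 and -0.66. The haem-binding protein gene HEBP1 had -0.67 ± 0.29, with -0.21, -0.27 and -1.20.

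Ferroptosis is a form of cell death driven by iron and lipid peroxides. Its list held 7 higher and 10 lower of 17 genes (median -0.02). GPX4, the enzyme that reduces lipid peroxides, stood at 357 CPM in shCtrl 1, 224 in shCCT2 1 and 309 in shCCT2 2, and at 275 and 142 CPM in shCtrl 2 and shCCT2 3 (fitted -0.65 ± 0.24, SE). It was lower than the control of its set in each knockdown library, but the groups overlap, since shCCT2 2 lies above shCtrl 2. SAT1, a polyamine acetyltransferase, had -1.38 ± 0.53, with -0.79, -0.13 and -2.55. CISD2 had 0.34 ± 0.19. VDAC3 had 0.38 ± 0.24, with 0.03, 0.01 and 0.87, so its largest value was that of set B. The NRF2 and BACH1 regulators held 3 higher and 4 lower of 7 genes (median -0.03), with MAFF at -0.45 ± 0.25, MAFK at -0.44 ± 0.24, CUL3 at 0.36 ± 0.21 and KEAP1 at 0.09 ± 0.19. In shCCT2 1, 2 and 3, MAFF had -0.13, -0.06 and -0.91, MAFK had -0.18, 0.01 and -0.88, and CUL3 had 0.19, 0.01 and 0.70.

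**Figure D4:**
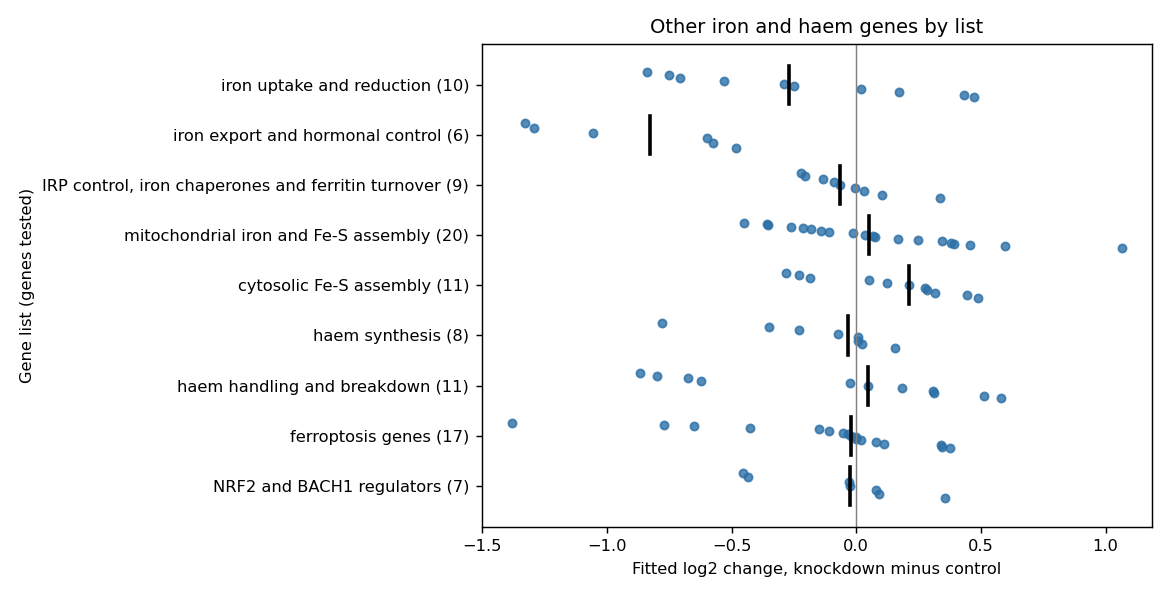
Fitted log2 change (knockdown minus control) of each of the 99 tested genes of the 9 other iron and haem lists, 1 point a gene, with the list median as a black line and the number tested in brackets. The list medians run from -0.83 for iron export and hormonal control to 0.21 for cytosolic Fe-S assembly. No gene passed the test, and neither did CCT2.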

How the data were processed

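Gene levels were deposited as estimated counts, not normalised and called read counts per the file headers, in a table for set A and another for set B. Of their values 86.2% to 87.9% were exactly whole, with no tolerance, and the others were rounded to whole numbers for the fits. The submitters' processing notes list mm10 as build and HTSeq and STAR 1.5.1 as tools, with no role, and 15757 of 15950 identifiers of set A and 16013 of 16219 of set B matched human RefSeq genes (GRCh38.p14). The build, annotation and strand setting behind the tables are not given in the sources used here. The authors also deposited a signal file of reads by position along transcripts per library.

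The tables were joined on gene_id (15187 genes). edgeR 4.0.16 (R 4.3.3) was fitted by quasi-likelihood with table and hairpin as terms, TMM factors (0.935 to 1.12) and edgeR's filter by group, with 2 residual degrees of freedom. An SE is the log2 change over the square root of F. Changes of single libraries use TMM-scaled CPM plus 0.5. DESeq2 was version 1.42.0. Scripts were tested on simulated data. Element sites were sought in the GENCODE 29 transcripts of the 6 members with a RefSeq promoter entry. The antioxidant response element core TGACNNNGC, sought on both strands in 300-base RefSeq promoter windows (GRCh38.p14), matched 1 window, of NCOA4, and 13.3% of all windows.

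The members and lists were chosen with earlier results of these data known. The rule for named genes takes all 9 members, up to 4 tested genes per list by the smallest unadjusted p, and the 4 genes outside the lists nearest to FTH1, FTL, TFRC and CP. A few of the genes this rule takes are counted but not reported by name here. Alternatives were no table term, a replicate block, set A alone, leaving out each library, other scalings, filters and pseudocounts, and DESeq2.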

Additional observations from a re-analysis of the deposited data

Results flagged for a closer look

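In 27 of the 99 list genes tested, both set A knockdown libraries lay on one side of their control and the set B knockdown library on the other. Of these, 13 were higher in set A and lower in set B, a pattern of 11.6% of all genes tested, and 14 were the reverse, as were 11% of all genes tested. The 27 hold 3 of the genes named by rule. APP had log2 changes of 0.17, 0.07 and -1.24 in shCCT2 1, 2 and 3, FBXL5 had 0.08, 0.14 and -0.61, and PROM2 had -0.52, -0.04 and 0.04. The difference between the sets did not pass for any of them (edgeR interaction, Benjamini-Hochberg adjusted p = 0.140, 0.299 and 0.717).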

How the results depend on the processing

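Of 115 alternative fitted values of the 9 genes, 110 kept their sign. The other 5 were HMOX1 at 0.10 without shCtrl 2, without shCCT2 3 and in set A alone, and NCOA4 at 0.040 with no table term and 0.29 with a replicate block. FTH1 ran from -1.09 to -0.64, FTL from -0.68 to -0.26, TFRC from 0.05 to 0.29, HMOX1 from -1.94 (-1.79 without shCtrl 1) to 0.10, and CP from -10.6, with the replicate block, to -1.44. ACO1 ran from -0.79 to -0.05, the latter with the replicate block. DESeq2 called 13 genes, 2 higher and 11 lower, against 0; with 1 library left out edgeR called 0 to 2, all lower, the 2 without shCCT2 2. The cause was not tested. The interaction called 263 genes with DESeq2 and 11 under the stricter filter, both added after the data were seen. Leaving out 1 library gave 4 to 7 of the 9 lower and 1 to 2 higher in all knockdown libraries that still had a control in their set. The 7 came without shCtrl 1, where shCCT2 3 alone was counted. The median of the 99 list genes was -0.083 with the replicate block, -0.085 with library totals alone, -0.0496 under the stricter filter and -0.042 to 0.0055 with 1 library left out. The replicate numbers do not follow the sets. Deviations from the group means correlated at 0.68 for number 1, whose libraries share a set, and at -0.59 for number 2, whose libraries do not. With 2 controls, their deviations mirror each other, so these values cannot show whether a shared number marks a pair. The replicate block called 0 genes. The fit has 2 residual degrees of freedom and each set has 1 control, and low counts limit CP and HMOX1 in set A.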
